A study of Arabidopsis thaliana with 6 samples.

Results

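Methionine sulfoxide reductase B (MSRB) genes encode enzymes that repair oxidized methionine, and 6 of them, MSRB2, MSRB5, MSRB6, MSRB7, MSRB8 and MSRB9, were examined among the 33037 features counted in closed flower buds of Arabidopsis thaliana. The members were chosen by gene identifier (AT4G21860, AT4G04830, AT4G04840, AT4G21830, AT4G21840 and AT4G21850), and the family was selected on the genotype difference of its genes in these same counts, so that difference is given for the members as a description and supports nothing. Messenger RNA was sequenced from buds of the naa50-1 mutant and of the wild type (WT), with 3 biological replicates of each. The position of the lesion, the age of the plants and the number of buds pooled are not stated in the labels. NAA50 encodes an amino-terminal acetyltransferase, and the series title ties it to degradation of the tapetum, the anther layer that feeds pollen.

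Methionine residues in proteins are readily oxidized to methionine sulfoxide, which exists in an R form and an S form. MSRB enzymes reduce the R form and MSRA enzymes the S form, and both classes are returned to their active state by thioredoxins or glutaredoxins. In Arabidopsis, MSRB1 and MSRB2 are chloroplast enzymes, MSRB3 is an enzyme of the endoplasmic reticulum, and MSRB7 and MSRB8 are cytosolic enzymes linked to tolerance of oxidative stress.

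Libraries held 19727584 to 20813563 counts. The transcript of the targeted gene was far higher, not lower, under the mutant label: NAA50 (AT5G11340) stood at 2429, 2520 and 2973 FPKM (a read level corrected for gene length and library depth) in the libraries labelled naa50-1, against 27.3, 27.1 and 23.2 FPKM in WT. The labels do not say how the allele affects this transcript, so directions below are those of libraries labelled naa50-1. The flower bud markers AP1, AP3, PI, AG and SEP3 were present in all 6 libraries, with a summed level of 1045 to 1365 CPM (counts scaled to the library total) in naa50-1-labelled libraries and 878 to 1150 CPM in WT. Summed over 5 pollen markers, none of which was at 0 in any library, the level was 5.33 to 11.1 CPM in naa50-1-labelled libraries and 760 to 1141 CPM in WT; over 5 tapetum markers it was 346 to 409 CPM in naa50-1-labelled libraries and 246 to 423 CPM in WT. In bulk buds, fewer cells of a type and less RNA per cell cannot be told apart. The part of this difference in cell content in the MSRB values was not tested.

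All 6 members lie on chromosome 4 in 2 tandem groups on the TAIR10 build, 9133 kb apart. MSRB5 (chr4:2445775-2447086) and MSRB6 (chr4:2449434-2451651) are on the plus strand, downstream of MSRB3 and MSRB4, which are no members. MSRB7 (chr4:11584346-11585542), MSRB8 (chr4:11586980-11588373), MSRB9 (chr4:11591116-11592425) and MSRB2 (chr4:11599645-11601724) follow each other on the minus strand. The gap is 1437 bases between MSRB7 and MSRB8, 2742 between MSRB8 and MSRB9, and 7219 between MSRB9 and MSRB2. MSRB2 is annotated with 609 coding bases, and MSRB7, MSRB8 and MSRB9 with 435, 432 and 432. DER2.2 and DER2.1, both of the Derlin family of protein degradation at the endoplasmic reticulum, lie among the 5 nearest genes of the first and of the second group.

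The tandem copies differ widely in how alike they are. MSRB7 and MSRB8 share 97.45% of 432 aligned coding bases, while MSRB9 shares 79.72% with MSRB8 and 79.86% with MSRB7. In the other group, MSRB5 shares 87.14% with MSRB4, 81.27% with MSRB3 and 73.04% with MSRB6. The 157-base internal coding exon is shown for the 3 compact copies and for MSRB5, since this exon is the same in MSRB7 and MSRB8 and so cannot tell their reads apart. It lies at chr4:11584882-11585038, chr4:11587812-11587968 and chr4:11591638-11591794 (minus strand) and chr4:2446452-2446608 (plus strand), from RefSeq TAIR10.1, and is written 5′ to 3′ with capitals where a base differs from MSRB8:
MSRB7: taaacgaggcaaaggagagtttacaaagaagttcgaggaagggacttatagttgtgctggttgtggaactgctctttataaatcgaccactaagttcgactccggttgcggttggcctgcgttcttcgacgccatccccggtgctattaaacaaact
MSRB8: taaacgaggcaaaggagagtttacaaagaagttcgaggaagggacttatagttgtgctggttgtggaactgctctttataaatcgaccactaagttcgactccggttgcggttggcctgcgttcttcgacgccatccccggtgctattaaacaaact
MSRB9: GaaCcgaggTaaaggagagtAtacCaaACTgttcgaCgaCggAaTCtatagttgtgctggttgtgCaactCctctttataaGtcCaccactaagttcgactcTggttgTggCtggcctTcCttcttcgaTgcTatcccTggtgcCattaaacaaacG
MSRB5: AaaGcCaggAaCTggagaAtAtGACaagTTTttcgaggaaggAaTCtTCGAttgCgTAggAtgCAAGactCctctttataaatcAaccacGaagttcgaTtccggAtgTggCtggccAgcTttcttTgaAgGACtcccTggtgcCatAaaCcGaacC

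MSRB9 differs from MSRB8 at 27 of these 157 bases, MSRB5 at 49, and MSRB7 at 0. Over whole transcripts, 22.2% of the 50-base windows of MSRB7 and 23.9% of those of MSRB8 occur in the other gene, and 13.9% and 15.0% of the 100-base windows do. MSRB2, MSRB5, MSRB6 and MSRB9 have no 50-base window in any other annotated gene. Most windows of MSRB7 and MSRB8 thus differ from the other copy at some base, and reads from the shared windows cannot be assigned to either with certainty.

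The members spanned the range from abundant to barely detected. By FPKM, which corrects for gene length, the order in naa50-1-labelled libraries was MSRB2, MSRB5, MSRB9, MSRB8, and then MSRB6 and MSRB7, which were close to 0. In WT it was MSRB2, MSRB5 and MSRB9, with MSRB6, MSRB8 and MSRB7 all close to 0. The ranges of neighbours in these orders did not overlap for MSRB2, MSRB5 and MSRB9 in either genotype, nor for MSRB9 and MSRB8 in naa50-1-labelled libraries. Those of the members close to 0 did overlap.

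**Figure D1:**
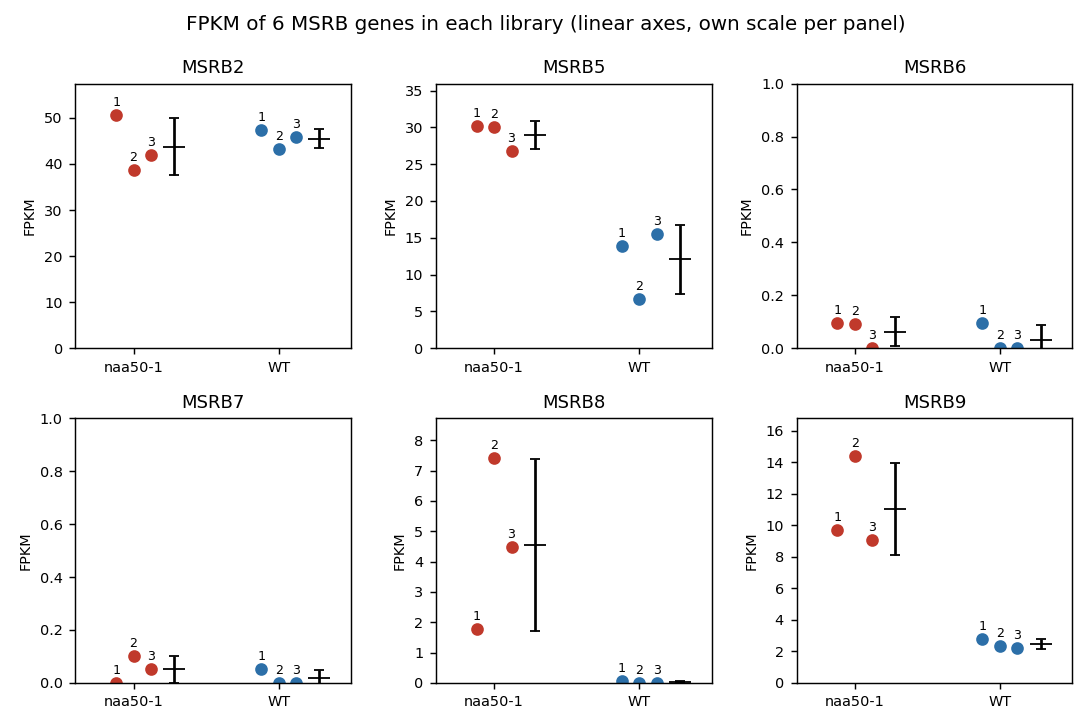
FPKM of each member (vertical axis, linear from 0, own scale in each panel) in 3 libraries labelled naa50-1 and 3 of WT; points are libraries with their replicate number, and the bar beside them is the mean with its SD. MSRB5, MSRB8 and MSRB9 are higher in every naa50-1-labelled library than in every WT library, MSRB2 overlaps, and MSRB6 and MSRB7 stay at or below 0.101 FPKM.

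MSRB8, a cytosolic copy, was found almost only in the mutant-labelled buds. Its reads numbered 31, 138 and 81 in naa50-1-labelled replicates 1, 2 and 3, against 1, 0 and 0 in WT replicates 1, 2 and 3. That is 1.76, 7.41 and 4.48 FPKM in naa50-1-labelled libraries, against 0.0571, 0 and 0 FPKM in WT. The groups did not overlap, and the naa50-1-labelled libraries themselves spread widely, with replicate 1 lowest and replicate 2 highest. The ratio of summed counts scaled to library totals was 248, with an exact 95% interval of 44.2 to 9848 that covers counting error only. A WT library at 0 allows a level of up to 0.152 CPM in replicate 2 and 0.148 CPM in replicate 3, which is 3 counts.

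MSRB7, the copy nearest to MSRB8 in sequence and position, was barely counted in either genotype. It had 0, 2 and 1 reads in naa50-1-labelled replicates 1, 2 and 3, against 1, 0 and 0 reads in WT. Both sums lie at or below 3 counts, so no fold is given. Its highest level in any library was 0.0961 CPM, in naa50-1-labelled replicate 2. Neighbouring genes that share 97.45% of their coding bases were counted at 250 reads for MSRB8 and 3 reads for MSRB7 over the naa50-1-labelled libraries.

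MSRB9, the next copy along, was already present in WT and was higher in the mutant-labelled buds. It stood at 9.69, 14.4 and 9.08 FPKM in naa50-1-labelled replicates 1, 2 and 3, against 2.82, 2.35 and 2.202 FPKM in WT. The groups were far apart, and replicate 2 was again the highest of the naa50-1-labelled libraries. The means were 11.1 ± 2.90 FPKM in naa50-1-labelled libraries and 2.46 ± 0.32 FPKM in WT (SD, n = 3 each), a 4.50-fold difference with a fitted log2 fold change of 2.16 (SE 0.23). Within a library, MSRB8 reached 0.182, 0.515 and 0.493 of the FPKM of MSRB9 in naa50-1-labelled replicates 1, 2 and 3, and 0.0203, 0 and 0 in WT. That ratio was higher in every naa50-1-labelled library than in every WT library. Since MSRB8 was close to 0 in WT and both genes were picked with the genotype difference in view, this separation is a description only.

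MSRB2, the chloroplast enzyme at the end of the same group, had overlapping levels. It stood at 50.6, 38.6 and 42.0 FPKM in naa50-1-labelled replicates 1, 2 and 3, against 47.4, 43.3 and 45.9 FPKM in WT. The fitted log2 fold change was -0.06 (SE 0.12), and replicate 2, the highest naa50-1-labelled library for MSRB8 and MSRB9, was the lowest for MSRB2. At its annotated start, MSRB2 shares 19 bases with the start of AT4G21865, which is transcribed in the opposite direction. That neighbour had a log2 fold change of 0.49 (adjusted p = 0.195, edgeR).

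In the other tandem group, MSRB5 was higher in the mutant-labelled buds and MSRB6 was barely counted. MSRB5 stood at 30.1, 30.0 and 26.7 FPKM in naa50-1-labelled replicates 1, 2 and 3, against 13.9, 6.70 and 15.6 FPKM in WT. The naa50-1-labelled libraries lay close together, and WT replicate 2 was well below the other WT libraries. The means were 28.9 ± 1.93 FPKM in naa50-1-labelled libraries and 12.1 ± 4.71 FPKM in WT (SD, n = 3 each), a 2.40-fold difference with a fitted log2 fold change of 1.26 (SE 0.26), or 0.97 without WT replicate 2. On the second principal component of log2 CPM (6.38% of the variance) WT replicate 2 also stood apart from the other WT libraries, at -38.1 against 20.7 for each of them. MSRB6 had 2, 2 and 0 reads in naa50-1-labelled libraries and 2, 0 and 0 in WT. Their ratio, scaled to library totals, was 1.99, and its exact 95% interval for counting error ran from 0.285 to 22.0.

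In all, 4 of the 6 members passed the filter on low counts, and 3 of those 4 (MSRB5, MSRB8 and MSRB9) were past the threshold of adjusted p 0.05 in edgeR, all in the higher direction. Of all 21196 genes tested, 3.94% were called higher and 5.59% lower in naa50-1-labelled libraries. The same 3 members did not overlap between the genotypes, as did 24.1% of all genes tested. MSRB8 passed the filter through its naa50-1-labelled libraries only. Because the members were picked with these differences in view, nothing is read from these counts. In the authors' deposited table the log2 fold changes were 1.27 for MSRB5, 7.81 for MSRB8, 2.17 for MSRB9 and -0.06 for MSRB2.

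**Figure D2:**
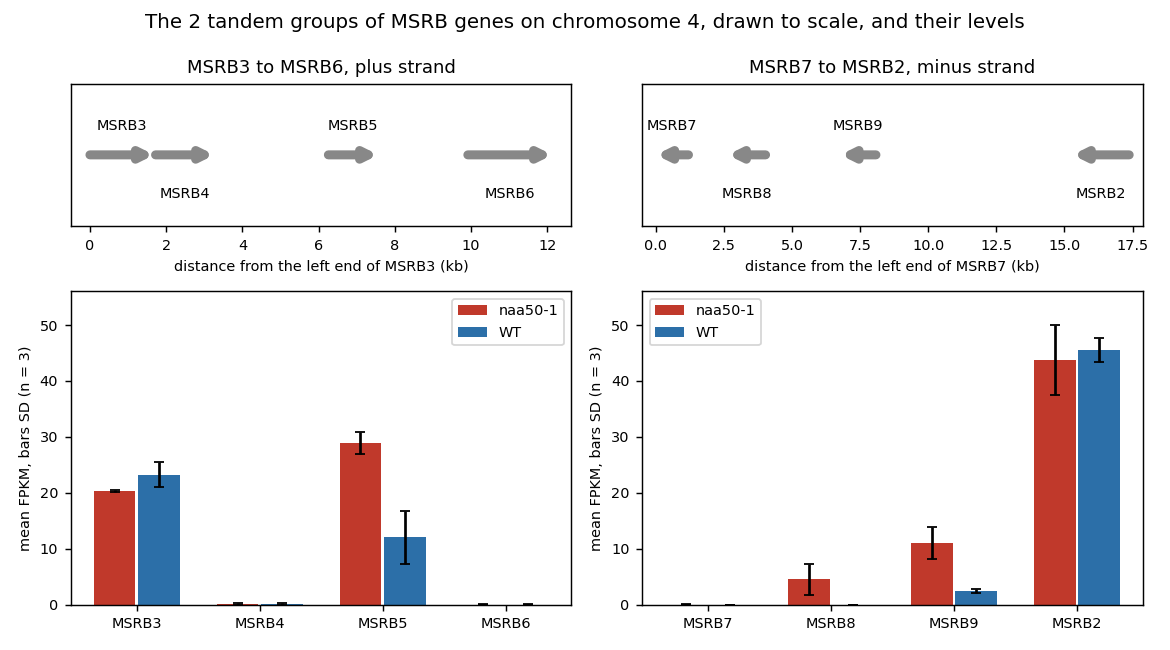
Top: both tandem groups drawn to scale, with arrows in the direction of transcription and distance in kb from the left end of the first gene. Below: mean FPKM with SD (n = 3) of each gene in naa50-1-labelled libraries (red) and WT (blue); MSRB8 lies between MSRB7, which is near 0, and MSRB9, and MSRB5 lies between MSRB4 and MSRB6, which are near 0.

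In the first tandem group, the copy with higher levels in mutant-labelled buds lay between copies that were barely counted. MSRB5 stood between MSRB4, with 8, 1 and 2 reads in naa50-1-labelled libraries and 1, 0 and 5 in WT, and MSRB6. The remaining copy of that group, MSRB3, had 20.2, 20.5 and 20.3 FPKM in naa50-1-labelled libraries and 21.0, 25.5 and 23.1 FPKM in WT. In the second group MSRB8 and MSRB9 are adjacent, with the barely counted MSRB7 on one side and the abundant MSRB2 on the other, as the map of the tandem groups shows. Summed over MSRB7, MSRB8 and MSRB9, the level was 11.5, 21.9 and 13.6 FPKM in naa50-1-labelled libraries, against 2.93, 2.35 and 2.202 FPKM in WT. Summed over all 9 MSRB genes of the files it was 149, 140 and 137 FPKM in naa50-1-labelled libraries, against 119, 107 and 126 FPKM in WT. MSRB5 made up 20.2%, 21.5% and 19.6% of that sum in naa50-1-labelled libraries and 11.6%, 6.28% and 12.4% in WT, and MSRB2, with 33.9%, 27.6% and 30.7% in naa50-1-labelled libraries and 39.8%, 40.5% and 36.4% in WT, was the most abundant MSRB transcript in all 6 libraries.

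Among the genes around the copies, no rise passed the test. Of 21 other genes next to or between the copies, 15 were tested. Of all 21196 genes tested, 3.94% were called higher and 5.59% lower in edgeR. Near that background, none of the 15 was called higher and 1, AT4G21895, was called lower. That gene, beyond MSRB2 on the minus strand, had 0 reads in each naa50-1-labelled library and 75, 175 and 134 in WT, and was at least 129-fold lower, taking 3 counts summed over the group as the floor. The other 14 had log2 fold changes from -0.30 (MED21, a Mediator subunit) to 0.49 (AT4G21865). AT4G21865 was higher in every naa50-1-labelled library than in every WT library, and groups did not overlap for 24.1% of all genes tested. Its adjusted p was 0.195 in edgeR. Among genes below the count filter, AT4G04975 had 9 reads in naa50-1-labelled libraries and 0 in WT, and AT4G05005 had 0 and 20. AT4G21820, which lies beside MSRB7, had -0.10 (adjusted p = 0.814, edgeR), and KEA3, a potassium antiporter gene beyond MSRB6, had -0.07 (adjusted p = 0.843, edgeR).

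**Figure D3:**
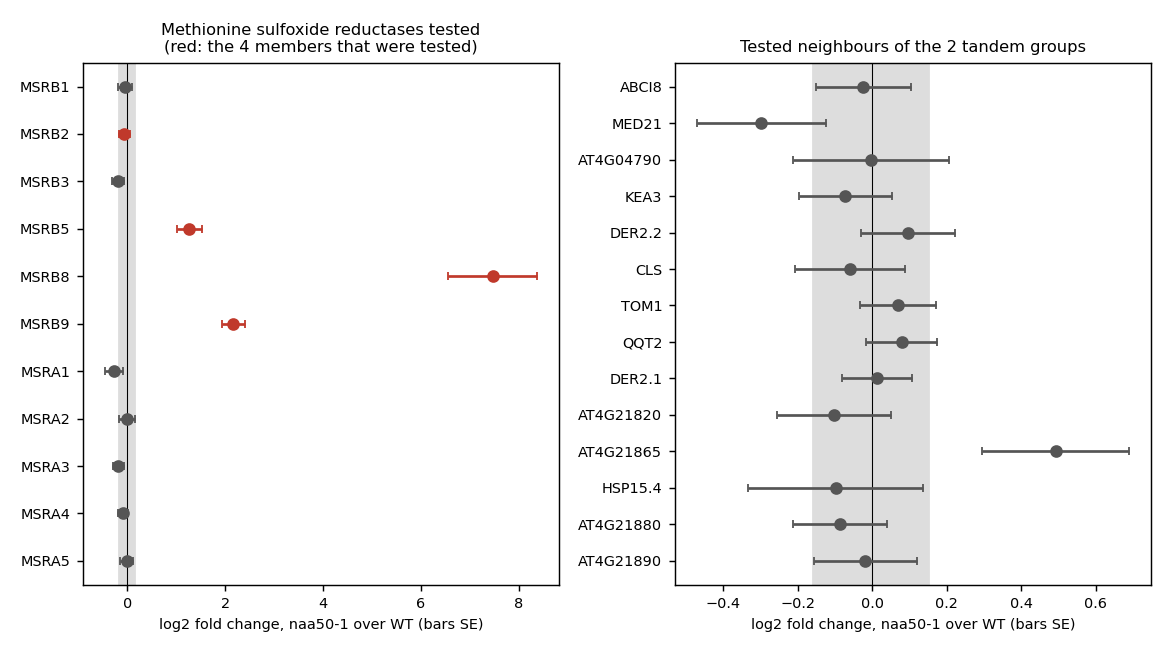
Log2 fold change of naa50-1-labelled libraries over WT with its SE (horizontal axis; the panels have different scales) for the 11 methionine sulfoxide reductases tested, with the 4 tested members in red, and for 14 tested neighbours; the grey band spans the middle quartiles of all genes tested, -0.16 to 0.15. The value of MSRB8 rests on a prior count since WT had 1 read, and AT4G21895, with no read in naa50-1-labelled libraries, is not drawn.

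The bases before the annotated start are printed for the 3 compact copies, which lie side by side with different levels, and for MSRB5. The windows cover 250 bases upstream at chr4:11585543-11585792, chr4:11588374-11588623 and chr4:11592426-11592675 (minus strand) and chr4:2445525-2445774 (plus strand), from RefSeq TAIR10.1. They are written 5′ to 3′ on the gene's strand. Capitals mark TTGAC on either strand, the letters that open the W box bound by WRKY transcription factors, which goes on with C or T:
MSRB7: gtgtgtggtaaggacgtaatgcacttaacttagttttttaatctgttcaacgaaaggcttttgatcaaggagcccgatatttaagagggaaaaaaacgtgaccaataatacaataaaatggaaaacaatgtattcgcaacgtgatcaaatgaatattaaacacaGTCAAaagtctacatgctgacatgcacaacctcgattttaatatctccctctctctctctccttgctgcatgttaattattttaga
MSRB8: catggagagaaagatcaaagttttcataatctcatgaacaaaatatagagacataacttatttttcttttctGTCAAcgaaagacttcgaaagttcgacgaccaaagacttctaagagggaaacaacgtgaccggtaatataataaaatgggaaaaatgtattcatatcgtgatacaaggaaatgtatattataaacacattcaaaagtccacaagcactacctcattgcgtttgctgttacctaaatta
MSRB9: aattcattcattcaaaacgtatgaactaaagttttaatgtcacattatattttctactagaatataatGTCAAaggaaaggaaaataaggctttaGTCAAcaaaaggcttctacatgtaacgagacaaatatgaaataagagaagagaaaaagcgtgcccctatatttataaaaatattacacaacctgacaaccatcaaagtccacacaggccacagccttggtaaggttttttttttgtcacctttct
MSRB5: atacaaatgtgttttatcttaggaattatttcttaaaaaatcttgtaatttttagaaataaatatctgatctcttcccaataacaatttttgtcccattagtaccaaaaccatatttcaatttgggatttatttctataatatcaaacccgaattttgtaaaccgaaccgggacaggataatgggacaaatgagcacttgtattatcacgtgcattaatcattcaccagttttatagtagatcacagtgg

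Among the members, TTGAC occurs once upstream of MSRB2, once upstream of MSRB7, once upstream of MSRB8 and at 2 places upstream of MSRB9, in each case on the opposite strand. In MSRB8 the match begins 178 bases before the start, in MSRB9 182 and 155 bases before it, in MSRB7 86 and in MSRB2 158 bases before it. The C or T of the W box comes next in MSRB2, in MSRB7 and in the MSRB9 match at 155 bases. In MSRB8 and in the MSRB9 match at 182 bases the next base is A, so these are not full W boxes. MSRB5 has no match in its window, and MSRB6 has none either, while the barely counted MSRB4 has 2 on its own strand, each followed by A. Windows were not cut at neighbouring genes. Both MSRB4 matches lie inside MSRB3, which ends 35 bases before MSRB4, and the whole MSRB2 window lies inside AT4G21865. Of 27419 windows of the same length before protein-coding genes, 44.9% hold TTGAC at least once and 14.1% hold it at 2 or more places. TGACG, the core letters bound by TGA transcription factors, was found in none of the 9 MSRB windows and in 18.6% of all windows. It shares the letters TGAC with TTGAC, so that TTGACG would count for both. The upstream windows of MSRB7 and MSRB8 were alike at 78.57% of 210 aligned bases, against 55.66% to 71.84% for the other 35 pairs of MSRB genes, which include unrelated windows.

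No other methionine sulfoxide reductase passed the test. Of 8 such genes 7 were tested, and 0 passed edgeR, DESeq2, limma-voom or limma on log2 FPKM. In edgeR 0 had an unadjusted p under 0.05. MSRB4 did not pass the count filter. Of all 21196 genes tested in edgeR, 3.94% were called higher and 5.59% lower, and 4078 had an unadjusted p under 0.05. With 7 genes tested, counts of 0 do not set these reductases apart from that background. Their log2 fold changes ran from -0.27 to -0.004, though those of MSRA2 and MSRA5 turned positive (0.02 and 0.01) when scaled by library totals alone. With 1 library left out, those of MSRA2, MSRB1 and MSRA5 reached up to 0.12, 0.06 and 0.05. The median was -0.08, beside -0.01 for all genes tested. MSRB1, the other chloroplast MSRB, stood at 36.2, 28.6 and 33.8 FPKM in naa50-1-labelled libraries, against 33.9, 29.0 and 38.9 FPKM in WT (log2 fold change -0.05, adjusted p = 0.915, edgeR). MSRB3 had a log2 fold change of -0.20 (adjusted p = 0.462, edgeR).

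Among the MSRA genes, whose enzymes reduce the other form of methionine sulfoxide, MSRA4, a chloroplast enzyme, was the most abundant. It stood at 81.5 ± 5.595 FPKM in naa50-1-labelled libraries and 86.2 ± 8.47 FPKM in WT (SD, n = 3 each), with a log2 fold change of -0.08 (adjusted p = 0.774, edgeR). MSRA3 had 48.4 ± 1.78 FPKM in naa50-1-labelled libraries and 54.8 ± 6.73 FPKM in WT (adjusted p = 0.426, edgeR). The log2 fold changes of MSRA1, MSRA2 and MSRA5 were -0.27, -0.004 and -0.02 (adjusted p = 0.524, 0.995 and 0.970, edgeR). Summed over the 5 MSRA genes, the level was 171, 152 and 160 FPKM in naa50-1-labelled libraries, against 175, 159 and 189 FPKM in WT, and the groups overlapped.

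**Figure D4:**
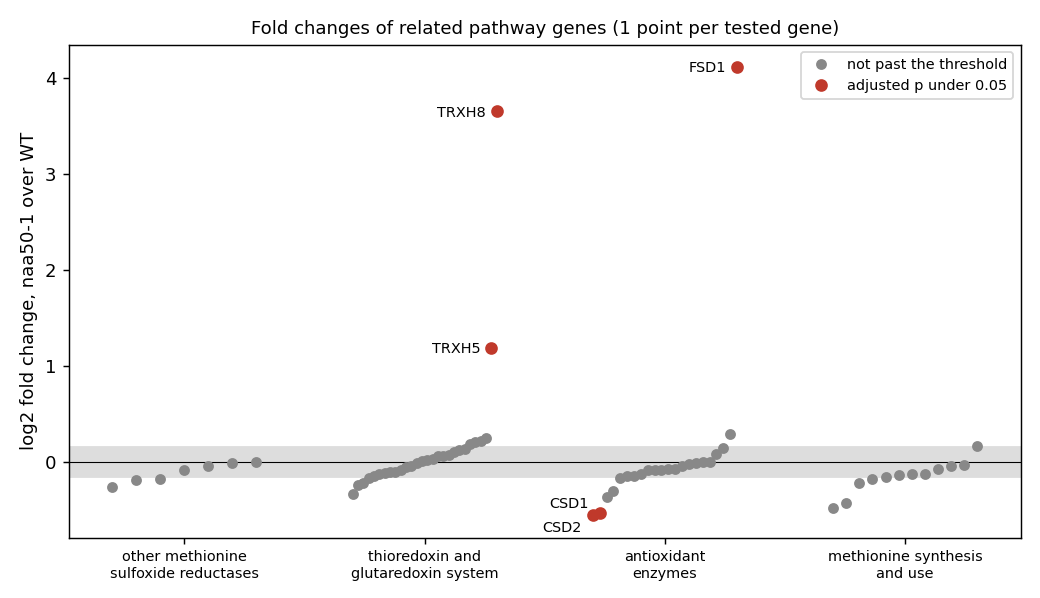
Log2 fold change of naa50-1-labelled libraries over WT (vertical axis) for each tested gene of 4 lists, 1 point per gene; red points are past an adjusted p of 0.05 in edgeR and are named, and the grey band spans the middle quartiles of all genes tested. Apart from TRXH5, TRXH8 and FSD1 above the band and CSD1 and CSD2 below it, no gene of the lists passed.

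Thioredoxins and glutaredoxins, which supply electrons to these enzymes, included a pair of h-type thioredoxins that rose in the mutant-labelled buds. The list held GRXS12, GRXC1 and GRXC2 as its only glutaredoxins, and it included the reductase genes NTRA, NTRB, NTRC and FTRB. Of 28 genes tested, 2 rose and 0 fell, with a median log2 fold change of 0.01; 3.94% of all genes tested were called higher and 5.59% lower, so the count is near the background. TRXH5, a cytosolic thioredoxin known for its role in immune signalling, stood at 85.9, 87.1 and 108 FPKM in naa50-1-labelled libraries, against 35.8, 34.99 and 52.4 FPKM in WT. The groups were well apart, and the log2 fold change was 1.19 (SE 0.17, adjusted p = 0.00116, edgeR). TRXH8, another h-type thioredoxin, rose from a low level, with 16, 27 and 26 reads in naa50-1-labelled libraries against 1, 4 and 0 in WT (log2 fold change 3.65, SE 0.69, adjusted p = 0.00707, edgeR). Both were called under every alternative run, but the log2 fold change of TRXH8 was 5.16 without WT replicate 2 and 1.116 on log2(FPKM + 1).

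Among antioxidant enzymes, the genes that passed were superoxide dismutases, which turn superoxide into hydrogen peroxide. Of 22 tested genes of this list (23 listed), 1 rose and 2 fell, with a median log2 fold change of -0.08; these counts are close to the 3.94% called higher and 5.59% called lower among all genes tested. The superoxide dismutases CSD3, MSD1, FSD2 and FSD3 did not pass, with log2 fold changes of -0.002, -0.07, -0.09 and 0.14 (adjusted p = 0.998, 0.792, 0.748 and 0.570, edgeR). FSD1, an iron superoxide dismutase, rose to 51.8, 79.7 and 63.1 FPKM in naa50-1-labelled libraries, against 6.999, 1.83 and 2.42 FPKM in WT (log2 fold change 4.11, SE 0.41, adjusted p = 0.00012, edgeR). Its lowest naa50-1-labelled library lay far above its highest WT library, WT replicate 1, without which the log2 fold change was 4.92. CSD2, a copper-zinc enzyme of the chloroplast, fell to 242, 179 and 216 FPKM in naa50-1-labelled libraries, against 328, 326 and 282 FPKM in WT (log2 fold change -0.56, SE 0.14, adjusted p = 0.0311, edgeR). CSD1, its cytosolic counterpart, fell to 368, 285 and 306 FPKM in naa50-1-labelled libraries, against 447, 420 and 521 FPKM in WT (log2 fold change -0.54, SE 0.14, adjusted p = 0.0402, edgeR). The groups did not overlap for either gene, but both calls were lost when naa50-1-labelled replicate 2, naa50-1-labelled replicate 3 or WT replicate 1 was left out, that of CSD1 also without WT replicate 3 (adjusted p 0.0769 to 0.167 over those 4) and with limma on log2 FPKM (0.0615 and 0.062), and that of CSD2 also without WT replicate 2 (0.0611 to 0.129 over its 4).

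**Figure D5:**
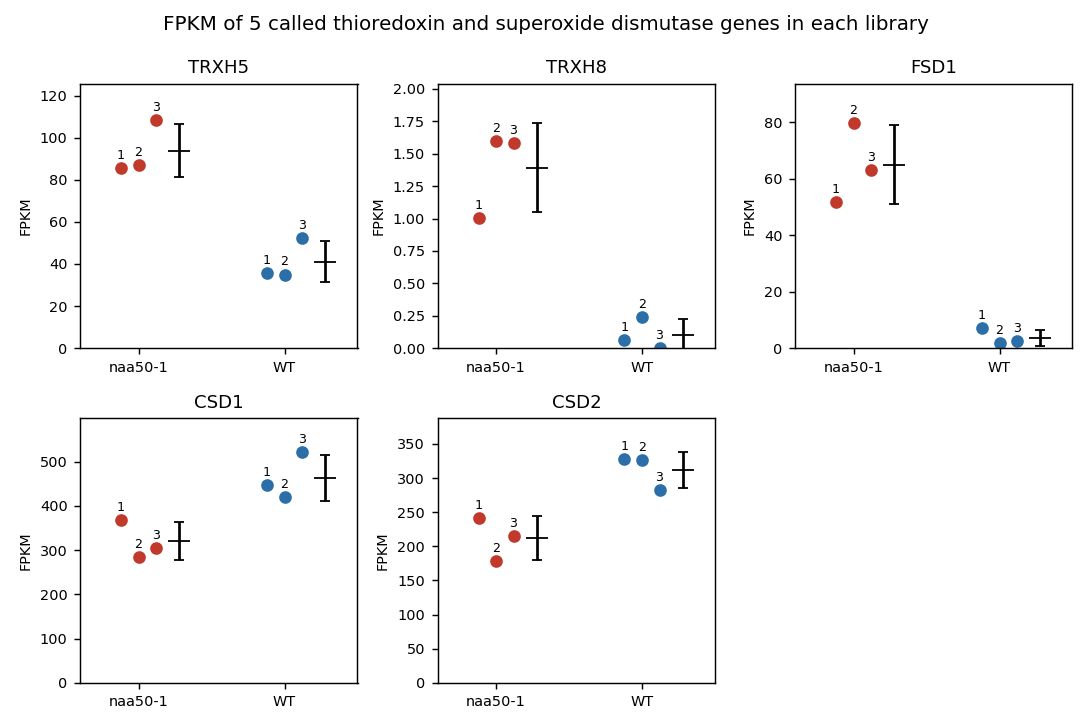
FPKM (vertical axis, linear from 0, own scale in each panel) of TRXH5, TRXH8, FSD1, CSD1 and CSD2 in 3 libraries labelled naa50-1 and 3 of WT; points are libraries with their replicate number, and the bar beside them is the mean with its SD. TRXH5, TRXH8 and FSD1 are higher in every naa50-1-labelled library than in every WT library, and CSD1 and CSD2 are lower.

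Of the genes that make and use methionine, none passed in edgeR. Of 12 tested, 0 passed in edgeR, limma-voom or limma on log2 FPKM, and 1 passed in DESeq2. In edgeR 2 had an unadjusted p under 0.05, and the median log2 fold change was -0.14. Of all 21196 genes tested in edgeR, 3.94% were called higher and 5.59% lower, and 4078 had an unadjusted p under 0.05. The edgeR counts for this list are near that background. MS3, a methionine synthase, had the smallest p, with 4.79, 5.16 and 4.52 FPKM in naa50-1-labelled libraries against 7.54, 6.73 and 5.87 FPKM in WT (log2 fold change -0.48, SE 0.13, adjusted p = 0.051, edgeR; 0.0412 in DESeq2). The groups of MS3 did not overlap.

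The genes whose profile over the 6 libraries was most like that of a member were found by Pearson's r of log2 CPM among genes whose mean reached 50 counts in 1 genotype. These are the best of many candidate genes over 6 libraries in 2 groups, and r is given as a description. It does not measure the size of a difference. For MSRB8 they were CRK19 (r = 0.999) and WAK3 (0.997), both receptor-like kinase genes, and AT5G22530 (0.996). CRK19 had a log2 fold change of 1.58, against 7.46 for MSRB8. WAK3 stood at 0.658, 2.30 and 1.58 FPKM in naa50-1-labelled libraries, against 0.0207, 0.0199 and 0 FPKM in WT, and like MSRB8 it was lowest in replicate 1 and highest in replicate 2 of the naa50-1-labelled libraries. For MSRB9 they were AT1G72240 (0.997), CML47 (0.996), a probable calcium-binding protein, and XBAT34 (0.996), a putative ubiquitin ligase at 21.1, 33.5 and 20.6 FPKM in naa50-1-labelled libraries against 2.53, 2.32 and 2.22 FPKM in WT. For MSRB5 they were PAPP2C (0.996), a protein phosphatase, GLR1.1 (0.996), a glutamate receptor, and AT2G14860 (0.996). PAPP2C and AT2G14860 had log2 fold changes of only 0.26 and 0.15 and were not called (adjusted p = 0.181 and 0.575, edgeR). GLR1.1 had 1.35 and shared the low WT replicate 2, with 0.281 FPKM there against 0.637 and 0.682 FPKM in the other WT libraries. For MSRB2 they were HST (0.988), NPY5 (0.987) and ndhT (0.984), none of which was past the threshold.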

How the data were processed

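RNA from closed buds was sequenced in 3 libraries per genotype, and the aligner was HISAT2 (version 2.0.5) on the TAIR10 build according to the submitters' processing notes. How reads were counted, with which strand setting and at which read length, is not given in the sources used here. The authors deposited read counts, whole numbers for each gene, together with FPKM values. In each library the deposited FPKM equalled the counts divided by the gene length and by 1 constant. The authors' deposited table adds, from software not named, a normalized signal per genotype, a log2 fold change and a p-value, raw and adjusted. Its log2 fold changes of MSRB5, MSRB8 and MSRB9 equalled those of the DESeq2 run on the same counts (1.26531, 7.81162 and 2.17059), so they are no separate check.

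Groups and replicate numbers came from the sample titles. Genotypes were compared over the whole count table with the edgeR 4.0.16 quasi-likelihood test (R 4.3.3), with TMM scaling, the filterByExpr filter, genotype alone as covariate, Benjamini-Hochberg adjustment and a threshold of 0.05. Standard errors are the absolute log2 fold change over the square root of the F statistic. Counts were simulated for this comparison (20722 genes), with changed genes drawn only from those with a WT mean above 2 CPM. Of these, 29.9% of genes changed 1.5-fold, 79.1% of those changed 2-fold and 98.5% of those changed 4-fold were recovered. There were 13 false among 151 calls. The recovery does not cover genes as low in WT as MSRB8 and TRXH8. Alternatives were RLE scaling, library totals, a looser count filter, DESeq2 1.42.0, limma 3.58.1 (voom, log2(FPKM + 1), log2(FPKM + 0.1)), a threshold of 0.01, a block for the replicate number, and leaving out each library in turn. The labels give 3 biological replicates per genotype; none was a duplicate (chi-square per degree of freedom 13.0 to 28.3 between libraries of a genotype).

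Sequences and exon bounds came from the RefSeq TAIR10.1 reference; gene bounds in the deposited files were the same for 99.95% of 32547 genes found in both. Coding sequences and upstream windows were aligned globally in pairs with free end gaps, and identity was taken over aligned bases without gaps. The 6 genes and all lists were chosen with earlier results of these data known. Named genes were all methionine sulfoxide reductases; from each other list up to 3 genes past the threshold by smallest p, or the smallest p where none passed; the 5 nearest annotated genes on each side of each tandem group and any between its copies; for each tested member the 3 genes with the most similar profile; and NAA50.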

Additional observations from a re-analysis of the deposited data

How the results depend on the processing

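The 3 members called (MSRB5, MSRB8 and MSRB9) were each called higher under every alternative run, except that MSRB5 missed a threshold of 0.01 (adjusted p = 0.011, edgeR), where 2 members were called. As the members were picked on this same difference, the repeated calls describe how the values depend on processing and support nothing further. The fitted log2 fold change ran from 0.97 to 1.49 for MSRB5 and from 1.78 to 2.29 for MSRB9. For MSRB8 it ran from 2.30 on log2(FPKM + 1) to 9.35 without WT replicate 1, which held its only WT read, so its size rests on the pseudocount or prior count. The count of 2021 genes called became 1336 at a threshold of 0.01 and 1645 to 1926 with 1 library left out. Of the antioxidant enzymes, 1 was called in place of 3 at 0.01, and 1 to 3 with 1 library left out. Of the methionine genes, 1 was called in DESeq2 and 0 to 1 with 1 library left out (1 without WT replicate 2 and 1 without WT replicate 3). The counts for the other methionine sulfoxide reductases (0) and for thioredoxins and glutaredoxins (2) were the same under all 15 alternatives. With the replicate number as a block 1969 genes were called, and the counts of all 5 lists were those without it; same-numbered libraries correlated at -0.0002, 0.0585 and 0.102 in their deviations from the genotype means, so the numbers were not taken to pair them. MSRB6 and MSRB7, with 4 or fewer reads in each genotype, did not pass the count filter; with the looser filter and in DESeq2 all 6 members entered the fit and 3 were called, and a difference in these 2 was not detectable at this depth.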
